A study of Mus musculus with 6 samples.

Results

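Liver plasma protein genes are 36 genes whose products hepatocytes secrete into blood or use in liver metabolism, measured here in mouse stomach lining. Every probe whose gene name on the array was one of the 36 was taken, which gave 46 probes. Of the 36 genes, 35 were well above background on at least 1 of 6 arrays, 22 were so on all 6, and C8a, a subunit of the membrane attack complex, on none. They stand among 31689 genes and unnamed transcripts on the array, of which 17860, with 30 of the 36, were above background on at least 3 arrays and could be tested.

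RNA came from glandular stomach mucosa, freed from muscle, of C57BL/6J mice. A4gnt-null mice of 5, 10 and 50 weeks were set against wild-type mice of the same 3 ages, with 1 mouse and 1 one-colour array for each genotype and age. A4gnt encodes the enzyme that adds the terminal N-acetylglucosamine of gastric gland mucin. A comparison at a single age has no replicates and carries no p-value, and a comparison over the ages has 3 arrays per genotype. The 3 null arrays shared slide 2 and the 3 wild-type arrays slide 1, so slide and genotype cannot be told apart.

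Hepatocytes make most circulating proteins: albumin and other carriers, apolipoproteins that package lipid, fibrinogen and other clotting factors, serpins that block proteases, and complement. Much of this programme is driven by liver-enriched transcription factors such as HNF1, HNF4 and C/EBP. Some of the genes are also active elsewhere, as background: enterocytes make apolipoproteins A-I, A-IV and B, macrophages make apolipoprotein E and C3, and the choroid plexus makes transthyretin. In bulk tissue, fewer cells of a type and less RNA per cell cannot be told apart.

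Signals are given as processed fluorescence scaled so that the 75th percentile of each array is 100. They compare arrays for 1 probe and not 1 probe with another. The detection limit, the lowest scaled signal that was called well above background, was 2.51 to 4.21 on null arrays and 2.98 to 4.48 on wild-type arrays. The A4gnt probe gave 0.908, 0.898 and 0.525 on the 5-, 10- and 50-week null arrays, none well above background, against 64.4, 91.0 and 91.1 on the wild-type arrays. The labels do not give the deleted stretch, so the probe checks the genotypes only if it lies there. All 9 stomach markers on the array were above background on every array, the acid pump gene Atp4b and the trefoil gene Tff1 among them.

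Sequences show how far 2 groups of probes can be told apart. The probes of Serpina1a, Serpina1c and Serpina1e, near-identical copies of the alpha-1-antitrypsin gene, lie on mm9 chromosome 12, minus strand, at chr12:105091819-105091878, chr12:105133165-105133224 and chr12:105185172-105185231. All 3 hold the same run of 29 bases, given here in capitals, and those of Serpina1a and Serpina1c share 47 bases. Their signals are thus not independent of each other.
Shared run of the 3 Serpina1 probes: GTCATCCTTCCTTCTGAATTGGGTTCCTT
The 2 Fga probes, for the fibrinogen alpha chain, lie on the plus strand at chr3:82837260-82837319 and chr3:82835678-82835737 of mm9. They are shown because they gave different profiles.
Fga, brighter probe: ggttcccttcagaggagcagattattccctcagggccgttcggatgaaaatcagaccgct
Fga, dimmer probe: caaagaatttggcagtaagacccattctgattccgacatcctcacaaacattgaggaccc
The Alb probe, at chr5:90901598-90901657 on the plus strand, is given as the probe of the best-known member.
Alb probe: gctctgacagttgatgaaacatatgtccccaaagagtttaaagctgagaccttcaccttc

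The 10-week wild-type array held the highest signal of 29 of the 35 genes above background, where 14.9% of all 20075 genes above background on at least 1 array had their highest signal. Of the 22 genes above background on all 6 arrays, 16 were highest there, where 13.4% of 15968 genes with that detection were. Of the other 6 among the 35, Apoa1, Apob, Fga and C3 were highest on the 5-week wild-type array, Ambp on that of 50 weeks and Serpinf2 on the 10-week null array. All 35 were above background on the 10-week wild-type array, and 28 and 29 were on the 5- and 50-week wild-type arrays. The null arrays had 30, 24 and 22 above background at 5, 10 and 50 weeks. Apoa5, Plg and Cps1 were above background on the 10-week wild-type array alone, as were 2.38% of all 20075 genes. Their place among the 29 follows from the filter, and the counts by role given below stand beside the same 14.9%. Together the 35 genes, with 1 probe each, made up 0.0239%, 0.0136% and 0.00974% of the summed signal of all probes on the 5-, 10- and 50-week null arrays. On the wild-type arrays the shares were 0.0293%, 0.106% and 0.0241%.

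**Figure D1:**
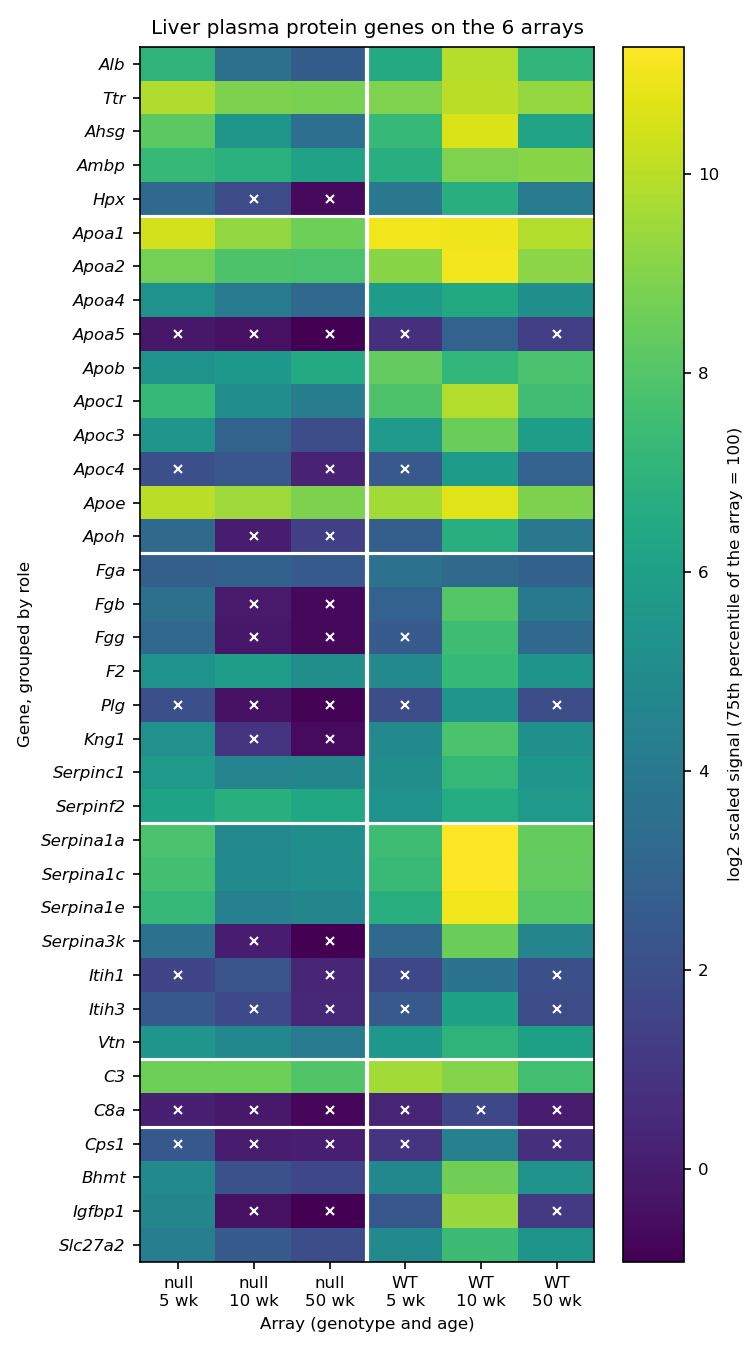
Log2 scaled signal (colour) of the 36 genes (rows, grouped by role) on the 6 arrays (columns, null left of wild type), with a white cross where a signal was not well above background. Colours compare arrays within a row, and the wild-type column of 10 weeks is the brightest in 29 of the 35 rows of genes above background.

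Of the 5 carrier genes, 4 were highest on the 10-week wild-type array. Alb, the main protein of plasma, had signals of 130.5, 11.9 and 6.4 on the 5-, 10- and 50-week null arrays, against 91.9, 957 and 136 on the wild-type arrays. The 10- and 50-week null arrays lay below all wild-type arrays, and that of 5 weeks lay among them. Ahsg, which encodes fetuin-A, a plasma inhibitor of mineral deposition, had 295, 46.1 and 11.5 on the null arrays and 153, 1540 and 73.6 on the wild-type arrays. Its 5-week null array was the second highest of the 6. Hpx, encoding the haem-binding hemopexin, had 9.41 on the 5-week null array and was not well above background at 10 and 50 weeks, against 15.7, 107.1 and 17.4 on the wild-type arrays. No null value of Hpx reached a wild-type value.

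The remaining 2 carriers spread less. Ttr, which encodes the thyroxine and retinol carrier transthyretin, had 901, 462 and 451 on the null arrays and 482, 1027 and 648 on the wild-type arrays, so that the groups overlapped. Ambp, the precursor gene of alpha-1-microglobulin and of the protease inhibitor bikunin, had 154, 117 and 69.4 on the null arrays and 108, 477 and 556 on the wild-type arrays. Its 10- and 50-week wild-type arrays stood above the other 4.

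Apolipoprotein genes numbered 10, and 8 were highest on the 10-week wild-type array. Apoa2, a structural protein of high-density lipoprotein, had 425, 236 and 216 on the null arrays and 557, 2153 and 564 on the wild-type arrays. Apoc1, which modulates lipoprotein metabolism, had 152, 33.3 and 19.0 on the null arrays and 238, 941 and 188 on the wild-type arrays. Apoc3, an inhibitor of lipoprotein lipase, had 45.1, 7.73 and 3.85 on the null arrays and 50.3, 374 and 60.5 on the wild-type arrays. For all 3, every null array lay below every wild-type array. A second, dimmer Apoa2 probe had a wider span, with 62.5, 11.6 and 10.3 on the null arrays and 68.8, 930 and 120.4 on the wild-type arrays.

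Apoa1, the main protein of high-density lipoprotein, had 1406, 633 and 386 on the null arrays and 2082, 1994 and 943 on the wild-type arrays. In both genotypes the array of 50 weeks was the lowest. Apoa4, an apolipoprotein of chylomicrons, had 41.1, 17.6 and 9.30 on the null arrays and 53.8, 89.1 and 35.2 on the wild-type arrays. Apoe, a ligand of lipoprotein receptors, had 1020, 719 and 465 on the null arrays and 761, 1674 and 476 on the wild-type arrays. The groups overlapped for Apoa1, Apoa4 and Apoe.

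Apob, the scaffold of very low density lipoprotein and chylomicrons, had another profile. Its signals were 39.7, 47.7 and 91.3 on the null arrays and 329, 144 and 220 on the wild-type arrays. The null array was lower at each age, with no overlap between the genotypes, and the 10-week wild-type array was the lowest of its genotype. The second Apob probe gave 7.69, 8.6 and 16.9 on the null arrays and 58.4, 35.5 and 41.7 on the wild-type arrays, in the same order of arrays. Of the other apolipoprotein genes, Apoh, which encodes beta-2-glycoprotein I, and Apoc4 were above background on 4 and 3 arrays, with 110.6 and 55.3 on the 10-week wild-type array.

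Among the 8 genes of clotting and clot lysis, 6 were highest on the 10-week wild-type array. Fgb and Fgg, for the fibrinogen beta and gamma chains, gave 269.6 and 181 on that array and 11.96 and 9.43 on the 5-week null array. Neither was above background on the 10- and 50-week null arrays. Fga had 6.75, 7.16 and 5.79 on the null arrays and 12.2, 9.84 and 7.24 on the wild-type arrays by its brighter probe. That probe spanned little on any array, while the dimmer one was above background on the 10-week wild-type array alone, at 10.4. The 2 probes of Fga thus disagreed.

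Serpinc1, which encodes antithrombin, had 49.6, 23.2 and 25.7 on the null arrays and 34.7, 149 and 45.5 on the wild-type arrays. F2, the prothrombin gene, had 40.9, 57.3 and 34.2 on the null arrays and 28.3, 150.2 and 41.6 on the wild-type arrays. Both had 1 high array and overlapped between the genotypes on the other 5. Serpinf2, which encodes the plasmin inhibitor alpha-2-antiplasmin, had 71.2, 112 and 80.5 on the null arrays and 41.1, 94.6 and 51.3 on the wild-type arrays. It was higher on the null array at each age, and both of its 10-week arrays were the highest of their genotype. Kng1, encoding kininogen, had 38.2 on the 5-week null array and was not above background on the 10- and 50-week null arrays, against 29.9, 228 and 36.9 on the wild-type arrays. Plg, the plasminogen gene, was above background at 43.0 on the 10-week wild-type array only.

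All 7 genes of protease inhibitors and matrix-binding proteins were highest on the 10-week wild-type array. Serpina1a had 221, 28.3 and 34.97 on the null arrays and 178, 2490.0 and 333 on the wild-type arrays. Serpina1c gave 195, 28.8 and 32.9 on the null arrays and 165, 2459 and 330.1 on the wild-type arrays, and Serpina1e 149, 21.8 and 25.2 on the null arrays and 108, 2073 and 274 on the wild-type arrays. The 3 profiles were nearly parallel, and the copies cannot be counted as separate evidence. Serpina3k, a related serpin, had 12.8 on the 5-week null array and was not above background on the 10- and 50-week null arrays, against 9.44, 367 and 25.04 on the wild-type arrays. Vtn, which encodes the adhesive protein vitronectin, had 43.6, 27.0 and 17.5 on the null arrays and 48.4, 129.6 and 65.3 on the wild-type arrays, with every null array below every wild-type one. Itih1 and Itih3, for hyaluronan-binding chains of the inter-alpha-trypsin inhibitor, were above background on 2 arrays each and highest at 13.1 and 66.2.

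C3, the central complement component, had 378, 386 and 250.2 on the null arrays and 760 on the 5-week wild-type array, 509 at 10 weeks and 192 at 50 weeks. Its wild-type arrays were in the order of age, and the array of 10 weeks did not stand out. The second C3 probe had the same order of arrays within the wild type, at 442, 282 and 154.

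The 4 liver metabolic genes were all highest on the 10-week wild-type array. Bhmt, the betaine-homocysteine methyltransferase gene, had 29.5, 4.37 and 3.30 on the null arrays and 27.3, 392 and 39.5 on the wild-type arrays. Its other 2 probes were not above background on the 10- and 50-week null arrays, and gave 547 and 124 on the 10-week wild-type array. Slc27a2, for a fatty acid transporter with acyl-CoA synthetase activity, had 19.3, 5.99 and 3.95 on the null arrays and 29.7, 172 and 42.4 on the wild-type arrays. Cps1, which catalyses the entry step of the urea cycle, was above background at 20.8 on the 10-week wild-type array only. Igfbp1, a binding protein of insulin-like growth factors that insulin represses in liver, had the widest span of all. It had 24.9 on the 5-week null array and was not above background on those of 10 and 50 weeks, against 5.18, 668 and, not above background, 2.17 on the wild-type arrays.

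The common course of hepatocyte genes was read from 31 other genes of that cell type, such as those of tyrosine aminotransferase (Tat) and cytochrome Cyp2e1, of which 25 were above background on at least 1 array. The hepatocyte index is the median, over these 25, of the log2 signal minus the gene's own mean. It was -0.11, -0.69 and -0.86 on the 5-, 10- and 50-week null arrays, against 0.11, 1.64 and -0.03 on the wild-type arrays. The gap between the 10-week wild-type array and the lowest, the 50-week null array, was 5.66-fold with signals not above background set to the lowest detected one. It was 9.32-fold without that floor and 2.32-fold with normexp background correction, so its size depends on the treatment of dim signals. On that wild-type array 25 of the 25 genes were above background, against 15 to 18 on each other array. The filter had kept 6 of the 25 through that array alone, which fixes part of this count. Of the 25, 19 were highest there, and of the 18 that were above background on at least 3 arrays, 12 were. Cyp1a2, Cyp7a1, Cyp8b1, Serpina6, C9 and Inhbc were not above background on any array. The summed signal of 30 listed genes was 532, 361 and 426 on the null arrays and 768, 2362 and 866 on the wild-type arrays. It takes every signal, above background or not, and Mug1 leads it. Mug1 had 103, 101 and 203 on the null arrays and 259, 662 and 395 on the wild-type arrays. Slc10a1 was left out of that sum but kept in the index. It was left out because its brighter probe was at least 26990.1 on every array, while its other probe lay between 0.584 and 3.55.

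A set of 21 genes among the 36 was chosen for steepness, their lowest array being under 10% of their signal on the 10-week wild-type array, a limit set after the values were seen. Apoa5, Plg and Cps1, above background on that array alone, are among them. Their median signal, relative to that array, was 8.89%, 1.24% and 1.22% on the 5-, 10- and 50-week null arrays. On the 5- and 50-week wild-type arrays it was 9.0% and 13.4%. Of the 21 genes, 17, 10 and 9 were above background on the 5-, 10- and 50-week null arrays, and 15 and 16 on the 5- and 50-week wild-type arrays, so the low shares are partly set by background. Over 12 of the other hepatocyte genes, chosen by the same limit, the medians were 14.8%, 6.80% and 4.85% on the null arrays and 20.5% and 15.1% on the 5- and 50-week wild-type arrays. Above background were 7, 4 and 4 of these 12 on the 5-, 10- and 50-week null arrays. On the 5- and 50-week wild-type arrays 7 and 6 were, so these shares too are partly set by background. Hpd, Tdo2, Mbl2, Slco1b2 and Uroc1, among the 12, were above background on the 10-week wild-type array alone. That the 10-week wild-type array is highest in both sets follows from the limit. These are relative amounts, and the values give no absolute share of liver RNA.

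**Figure D2:**
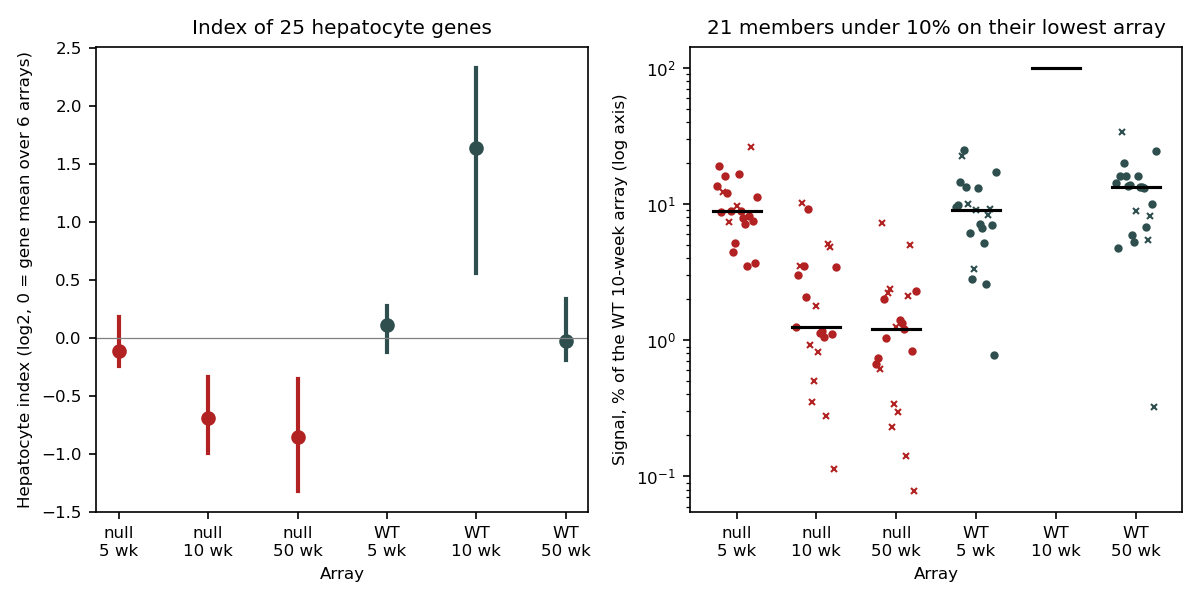
Left, the hepatocyte index (log2 units, median of 25 genes, bars from the first to the last quartile) of the 6 arrays, null left of wild type. Right, the signal of 21 liver plasma protein genes as a percent of their own signal on the 10-week wild-type array (log axis; crosses not well above background; lines are medians), from 1.22% on the 50-week null array to 100% by definition.

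Igfbp1 and Ahsg, chosen after their values were seen, show how single genes differed from the medians of the 21. Others did so too, among them Apoc4 at 9.30% on the 10-week null array, where the median was 1.24%, and Serpina3k at 3.49% on the 5-week null array. Igfbp1 stood at 3.73% of its wild-type 10-week signal on the 5-week null array and at 0.776% on the 5-week wild-type array. The medians of the 21 genes there were 8.89% and 9.0%. On the 50-week wild-type array Igfbp1 was not above background, at 0.325% where the median was 13.4%. Ahsg stood at 19.1% on the 5-week null array and at 3.0% on that of 10 weeks, both above the medians, and at 4.78% on the 50-week wild-type array, below the median. The differences of single genes from the medians have no replicates and were not tested.

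Each gene was then set against the index. A gene was said to follow it where subtracting the index left at most 0.5 of the gene's SD over the 6 arrays, and to depart where more than its own SD was left. By this rule 7 followed, 24 followed in part and 4 departed. Apoa2, Apoa4, Plg, Serpinc1, Itih1, Vtn and Cps1 followed, with Apoa2 keeping 0.276 of its SD. Apoa2 was judged by its brighter probe only. Its dimmer probe, from 10.3 on the 50-week null array to 930 on the 10-week wild-type array, was not set against the index. Of the 7, Plg and Cps1 were above background on the 10-week wild-type array alone and Itih1 on 2 arrays, so their other values are the lowest detected signal of the array and their place is set by few measurements. Apoa4, at 0.479, was the last inside the limit, and Apoc4, at 0.512, the first outside. C3, Fga, Serpinf2 and Ttr departed, with 1.23, 1.79, 1.91 and 1.13 of their SD left, and Apob, at 0.992, was just inside the limit of departure. Fga was judged by its brighter probe only, while its dimmer one was above background on the 10-week wild-type array alone. Without the 10-week pair, F2 and Serpinf2 departed, and C3, Fga and Ttr did not.

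Many genes moved more than the index. Of the 35, 24 had a slope above 1 on it, up to 3.17 for Igfbp1, 2.84 for Serpina3k and 2.76 for Alb. Setting dim signals to the lowest detected one narrows the index as well as the genes, and without that floor 22 of the 35 had a slope above 1. The slopes also depend on the genes in the index, of which 19 of 25 were highest on the 10-week wild-type array. With the 18 index genes above background on at least 3 arrays, 24 of the 35 had a slope above 1, up to 2.97. With normexp background correction 27 of the 35 did, up to 4.76. With each gene's own slope fitted, an alternative chosen after the data were seen, 26 followed, 9 followed in part and 0 departed. The 9 were Ambp, Apoa1, Apob, Apoe, C3, F2, Fga, Serpinf2 and Ttr. Serpinf2 had a slope of -0.002 and kept 1.0 of its SD, Apob kept 0.926 and C3 0.905. At the other end, Apoa2, by its brighter probe, kept 0.107, Hpx 0.198 and Fgb 0.209. The index is made from other genes of the same 6 arrays, so these shares describe the arrays and are no test.

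**Figure D3:**
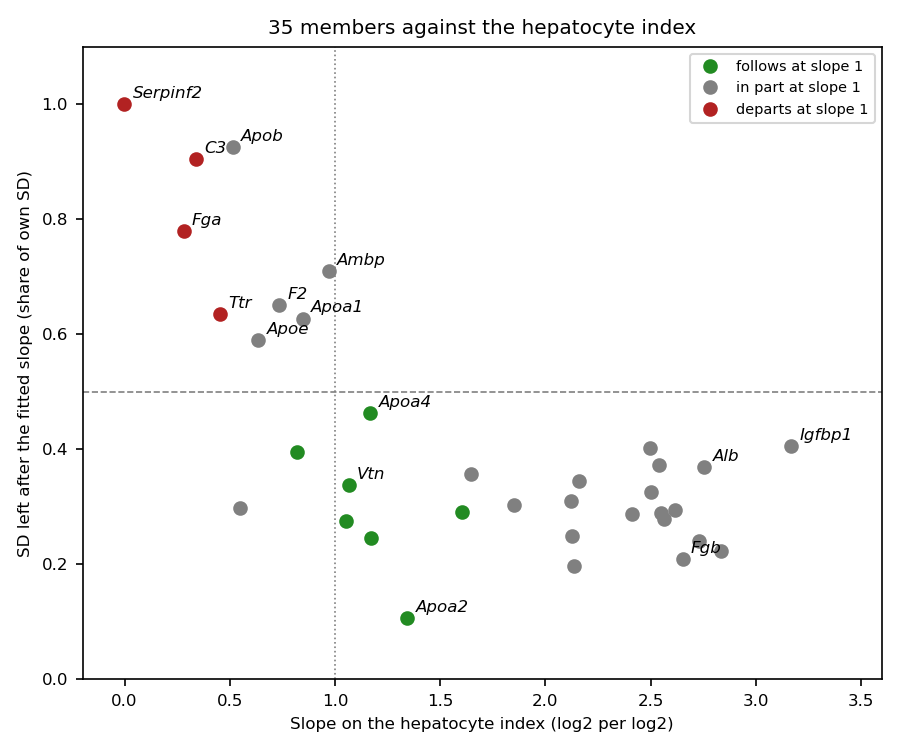
Slope of each of 35 genes on the hepatocyte index (x axis, log2 per log2) and the share of its SD left after that slope is fitted (y axis), coloured by whether it follows the index at a slope of 1. The 9 genes above the dashed line at 0.5 are Ambp, Apoa1, Apob, Apoe, C3, F2, Fga, Serpinf2 and Ttr, and Igfbp1 has the steepest slope, 3.17.

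Marker genes of other tissues had several profiles. The summed signal of 8 pancreatic acinar genes was 5564, 157 and 118 on the 5-, 10- and 50-week null arrays, against 14836, 302 and 2729.8 on the wild-type arrays. The 10-week wild-type array was thus the lowest of its genotype for pancreas, while the arrays of 5 weeks were highest in both genotypes. Smooth muscle genes, 5 of 5 above background on at least 1 array, summed to 1141, 2034 and 632 on the null arrays and 307, 1481 and 2592 on the wild-type arrays. Red cell genes, 3 of 3, summed to 11792, 2319 and 590.4 on the null arrays and 1850.1, 2454 and 734 on the wild-type arrays. Like Alb, the red cell sum was highest of the wild type on the array of 10 weeks and its null arrays were in the order of age, with that of 50 weeks lowest, but its highest array of all was the 5-week null one. The part of these tissues in the levels of the liver genes was not tested.

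Markers of cells that also make some of the 36 proteins were read as well. Of 12 enterocyte genes 10 were above background on at least 1 array, and Sis and Slc5a1 on none. Their sum was 4182, 4732 and 4251 on the null arrays and 4235, 5099.7 and 8074 on the wild-type arrays. A sum is led by its brightest probes, and single genes differed. Of the 6 enterocyte genes above background on all 6 arrays, Rbp2, Anpep and Fabp1 were lower in the null array at each age. Vil1 was higher at each age, and Fabp2 and Alpi were higher at 5 and 10 weeks and lower at 50 weeks. Of the 30 liver plasma protein genes tested, 11 were also lower in the null array at each age, Apob, Apoa1 and Apoa4 among them. Alpi gave 154, 337 and 127 on the null arrays and 17.3, 20.2 and 167 on the wild-type arrays. Rbp2, a retinol-binding protein gene, gave 76.4, 96.4 and 84.0 on the null arrays and 161, 238 and 301 on the wild-type arrays. The part of enterocytes in the levels of Apob, Apoa1 and Apoa4 was not tested. The microsomal transfer protein gene Mttp, needed to load Apob with lipid, gave 3.16, not above background, 12.6 and 5.35 on the null arrays, against 6.05, 9.89 and 5.6 on the wild-type arrays. Of 9 macrophage genes on the array 8 were above background on at least 1, and Cd68 on none. Their sum, led by Csf1r, was 1358, 946 and 938 on the null arrays and 1082, 949 and 782 on the wild-type arrays. Of the 7 above background on all 6 arrays, C1qa, C1qc, Mpeg1 and Aif1 were higher in the null array at each age. Csf1r, C1qb and Adgre1 were not. Mpeg1 gave 37.5, 39.9 and 31.2 on the null arrays and 16.3, 26.2 and 15.7 on the wild-type arrays. Limma called 0 of the 7, and 3 had an unadjusted limma p under 0.05 with null higher, where 11.2% of all genes did. For Apoe and C3 the part of macrophages was not tested.

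**Figure D4:**
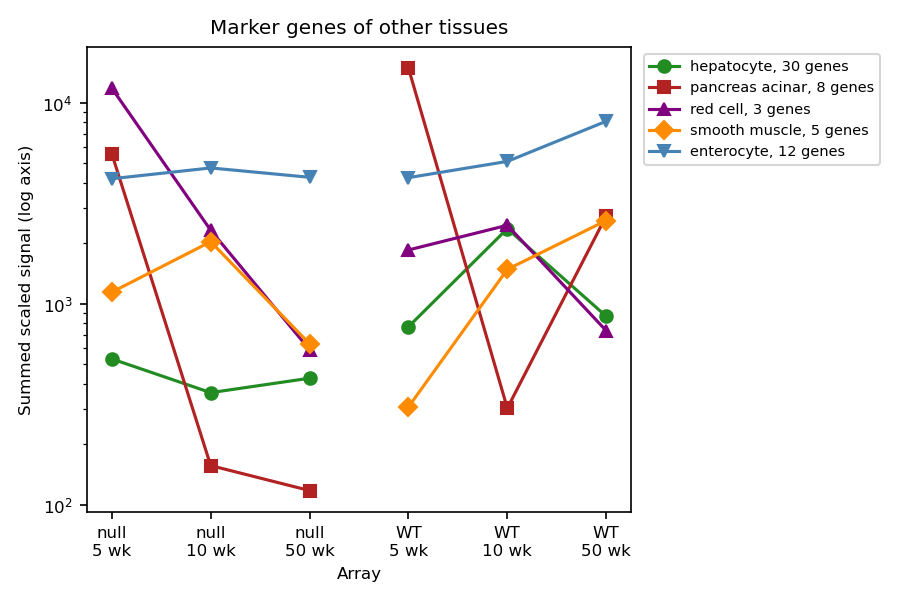
Summed scaled signal (log axis) of marker genes of 5 tissues or cell types on the 6 arrays, null left of wild type, lines joining the arrays of a genotype in order of age. Hepatocyte genes peak at 2362 on the 10-week wild-type array, where the pancreatic sum, 302, is the lowest of that genotype.

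Over the 3 ages, no liver plasma protein gene passed the test of genotype. With limma and age as a factor, 0 of the 30 tested were called at an adjusted p under 0.05, and 0 of the 17860 (0% higher and 0% lower). The limma adjusted p of the 30 lay between 0.144 and 0.740. At an unadjusted limma p under 0.05, 12 of the 30 were counted, where 23.7% of all genes were. Of the 12, 11 were lower in null arrays, where 12.5% of all genes were counted in that direction, and Serpinf2 was higher. The 11 included 7 of 9 apolipoprotein genes tested and 1 of 5 carriers. With normexp, limma called 107 of all genes higher and 91 lower, and with a variance trend 28 and 13, but 0 of the 30 with either.

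The signs ran mostly one way. The median log2 difference, null minus wild type, was -2.60 over the 30 genes and -0.02 over all genes tested, and it was negative for 29 of the 30, as for 52.5% of all. The null array was lower at all 3 ages for 11 of the 30, at 2 ages for 18 and at none for Serpinf2. These counts and those of overlap take every signal, above background or not. Apoc4 counts as lower at 3 ages and without overlap. Neither of its 5-week arrays was above background, at 4.06 for null and 5.60 for wild type. Groups did not overlap for 9 of the 30, all with null lower, as for 11.2% of all genes. None of the 30 had every null array higher, as 12.6% of all genes did. The 3 ages differed widely, and the next values show which array the median rests on.

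Apob had a difference of -1.97 ± 0.40 (log2, SE, n = 3 per genotype; limma adjusted p = 0.144), and its null array was lower at 3 of 3 ages. Apoa1 differed by -1.17 ± 0.25 (limma adjusted p = 0.145) and Apoa4 by -1.55 ± 0.43 (limma adjusted p = 0.170), also lower at 3 of 3 ages. Serpinf2 differed by 0.56 ± 0.16 (limma adjusted p = 0.171), higher at 3 of 3. The steep genes had wide errors, with Alb at -3.41 ± 1.42 (limma adjusted p = 0.244), Serpina1a at -3.13 ± 1.37 (limma adjusted p = 0.255) and Igfbp1 at -3.19 ± 2.46 (limma adjusted p = 0.467), each lower at 2 of 3 ages. The Igfbp1 value rests in part on signals not above background, and at 50 weeks neither of its arrays was above it. Ttr differed by -0.26 ± 0.44, C3 by -0.34 ± 0.30 and Apoe by -0.28 ± 0.36, each smaller than its error or near it.

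Without the 10-week pair the median over the 30 was -1.36. With the hepatocyte index of each array as covariate in place of age, it was -0.44, against -0.04 over all genes. With the index, 4 of the 30 had an unadjusted limma p under 0.05, where 9.84% of all genes did, and the smallest limma adjusted p was 0.264. These were Apob at -2.71 ± 0.43, Igfbp1 at 2.75 ± 0.85, Apoe at 0.86 ± 0.31 and Serpinf2 at 1.09 ± 0.41. Of the 4, Apob was lower and 3 were higher in null arrays at a given index.

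**Figure D5:**
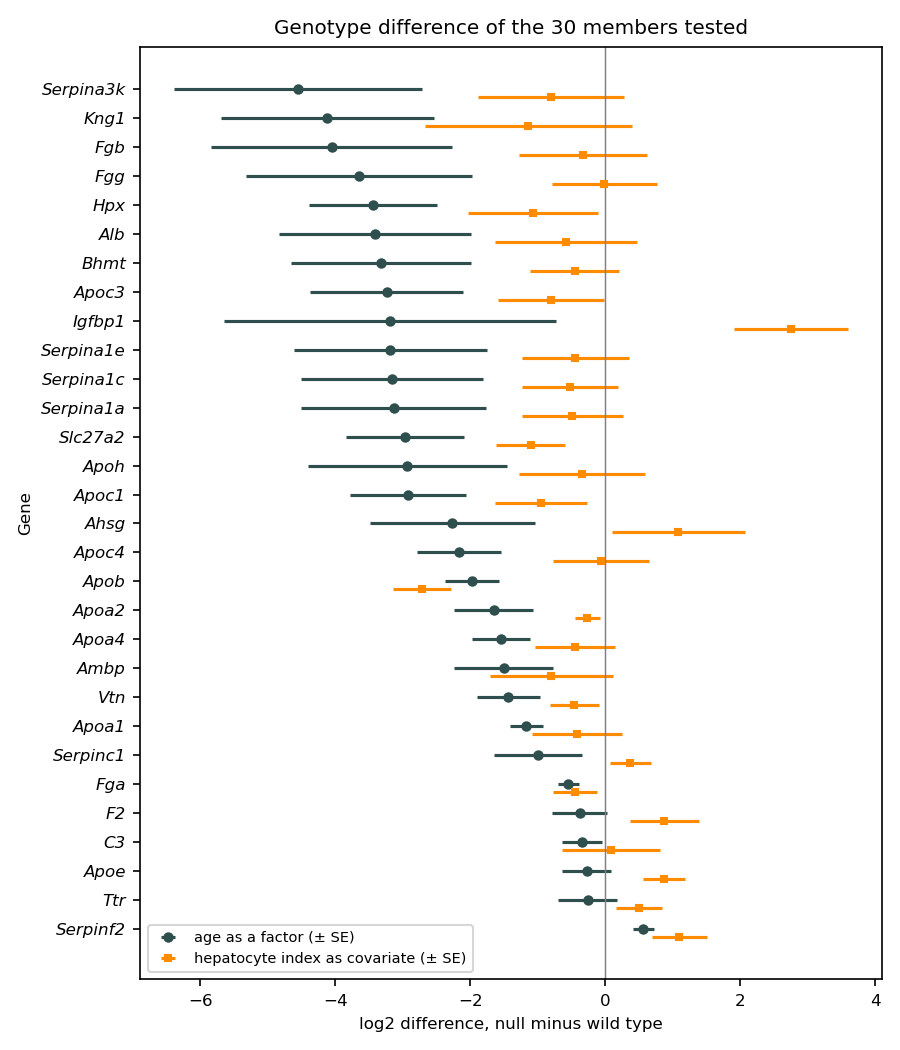
Log2 difference, null minus wild type (x axis, ± SE, 3 arrays per genotype), of the 30 genes tested (rows), with age as a factor (circles) and with the hepatocyte index as covariate (squares). With the index most values lie nearer to 0, the median being -0.44 against -2.60, while Apob is at -2.71 against -1.97.

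By age, the null and wild-type arrays were close at 5 weeks and far apart at 10. At 5 weeks, 28 genes were above background on both arrays, 17 higher and 11 lower in the null array. Their median log2 difference was 0.33, against -0.02 over all genes. At 2-fold or more, 2 were lower, as were 4.88% of all genes, and 1 was higher, as were 3.54%. Apob differed by -3.05, C3 by -1.01, Igfbp1 by 2.26 and Ahsg by 0.95. Of the 8 apolipoprotein genes, 6 were lower in the null array, while 4 of 5 carriers and 5 of 6 clotting genes were higher. This split by role counts small differences too, rests on 1 array per genotype and was not tested.

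At 10 weeks, 24 genes were above background on both arrays and 23 were lower in the null array. Their median log2 difference was -2.51, against 0.008 over all genes. At 2-fold or more, 21 were lower (5.23% of all genes) and 0 higher (4.31%). Serpina1e differed by -6.57, Bhmt by -6.49, Serpina1a by -6.46 and Serpina1c by -6.42. The other Bhmt probes gave bounds, with null lower by 154-fold or more and by 34.9-fold or more. A further 11 were not above background on the null array and had bounds only. Igfbp1 was at least 188-fold lower, Serpina3k at least 103-fold, Fgb at least 76.0-fold and Kng1 at least 64.4-fold. Serpinf2 alone was not lower, at 0.25.

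At 50 weeks, 22 genes were above background on both arrays and 20 were lower in the null array. Their median log2 difference was -1.91, against 0.003 over all genes. At 2-fold or more, 15 were lower (4.28% of all genes) and 0 higher (2.01%). Alb differed by -4.41, Apoc3 by -3.97, Bhmt by -3.58 and Serpina1e by -3.44. A further 7 had bounds, from at least 2.98-fold lower for Apoc4 to at least 14.7-fold lower for Kng1. Serpinf2, at 0.65, and C3, at 0.38, were higher in the null array.

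Between 50 and 5 weeks, with 2 arrays per age, 0 of the 30 genes were called by limma, where 2 of 17860 genes, 0.0112%, were called higher and 0 lower. At an unadjusted limma p under 0.05, 2 of the 30 were lower at 50 weeks, as were 11.7% of all genes, and 0 were higher, as were 7.51%. These were Apoa1 at -1.50 ± 0.30 (limma adjusted p = 0.216) and C3 at -1.29 ± 0.37 (limma adjusted p = 0.229), each lower at 50 weeks in both genotypes.

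Promoters were read for the letters of binding motifs of liver transcription factors. RefSeq windows of 300 bases, 250 before the start and 50 after it, were used for 29 of the 36 genes (GRCm38.p6). No window was used for Apoc1, Plg, Kng1, Apoc3, Ttr, Cps1 and Serpina3k. GTTAAT, a core of HNF1 sites, searched on both strands, occurred in the windows of 12 of the 29 genes, where 7.10% of 32851 windows held it. The 12 were Alb, Apoe, C8a, F2, Fga, Fgb, Igfbp1, Itih1, Serpina1a, Serpina1c, Serpina1e and Vtn, of which the 3 Serpina1 copies are alike. It lay 32 bases before the start of Alb and 56 before that of Igfbp1, as ATTAAC on the printed strand for Igfbp1. The TATAAA box occurred in 7 genes (13.6% of all windows), TTCNNNGAA of STAT in 4 (8.30%), TTNNGCAAT of C/EBP in 3 (2.18%), and CAAAGTCCA of HNF4 and the longer HNF1 palindrome in none (0.475% and 0.0396%). A match in letters is a description and not a site. Windows are shown for Alb and Igfbp1, which were steep, and for Apob, which was not, with the motif in capitals.
Alb, chr5:90460620-90460919, plus strand: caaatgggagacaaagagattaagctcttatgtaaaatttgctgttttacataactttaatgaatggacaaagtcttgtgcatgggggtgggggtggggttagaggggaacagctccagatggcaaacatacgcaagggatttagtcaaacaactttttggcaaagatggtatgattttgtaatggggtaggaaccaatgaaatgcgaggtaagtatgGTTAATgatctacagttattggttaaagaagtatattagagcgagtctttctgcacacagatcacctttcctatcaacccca
Igfbp1, chr11:7197537-7197836, plus strand: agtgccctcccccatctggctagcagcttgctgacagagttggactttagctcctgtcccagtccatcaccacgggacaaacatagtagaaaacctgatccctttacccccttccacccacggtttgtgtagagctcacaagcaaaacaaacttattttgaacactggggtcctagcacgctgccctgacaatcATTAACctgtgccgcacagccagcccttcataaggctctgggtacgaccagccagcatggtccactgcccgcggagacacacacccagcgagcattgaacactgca
Apob, chr12:7977427-7977726, plus strand, no GTTAAT on either strand: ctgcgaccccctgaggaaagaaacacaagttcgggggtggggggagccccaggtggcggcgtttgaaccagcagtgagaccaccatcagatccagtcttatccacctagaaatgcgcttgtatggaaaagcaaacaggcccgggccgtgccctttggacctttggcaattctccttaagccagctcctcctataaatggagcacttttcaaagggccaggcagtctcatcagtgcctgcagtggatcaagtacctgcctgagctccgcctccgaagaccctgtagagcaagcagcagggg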

How the data were processed

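Per the file headers, each spot's fluorescence intensity comes from Agilent Feature Extraction 10.7.1.1, whose processed signal has the background taken off. A second deposited file holds log2 values equal to this signal's log2 plus 1 constant per array (within 0.01 for 100% of 39399 probes), so it is another scaling. Probe positions are those of mm9, per the file headers. Here the log2 processed signal minus the array's 75th percentile was used. Outlier-flagged and control spots were left out, 0 spots were saturated, and repeated spots were averaged. The probe with the highest mean log2 signal stood for a gene, and 9 of the 36 genes had several. Between 54.8% and 59.2% of spots were well above background, and the number of arrays limits the precision.

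Genes above background on 3 arrays or more were fitted with limma 3.58.1 in R 4.3.3 (genotype plus age as a factor), with Benjamini-Hochberg adjustment over all 17860. The replicate numbers pair arrays because both arrays of a number share the labelled age. Each array holds 1 mouse, so p-values measure the spread between these arrays. A bound sets the array above background against the higher of the other array's lowest detected signal and the probe's own signal there. For the hepatocyte index, signals not above background were set to the lowest detected signal of their array. The fit was tested on simulated data. Figures were drawn with matplotlib 3.10.9.

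The members and lists were chosen with earlier results of these data known. Members above background on all 6 arrays or departing from the index were named with their values, then the 4 largest differences at each age. Others, such as Hpx, Igfbp1 and Kng1, were named outside that rule, after their values were seen. Lists for acute-phase, other complement and adipocyte genes are given in the closing section. Alternatives were other scalings, background correction by normexp with an offset of 50, other filters, the mean of a gene's probes, a variance trend, pairs left out, no age term, and the index as covariate. The cause of any difference was not analysed here.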

Additional observations from a re-analysis of the deposited data

Results flagged for a closer look

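In 10 genes the signal moved in opposite directions between 5 and 10 weeks in the 2 genotypes, at least 2-fold in each, on 1 array per age and genotype, as for 0.366% of 16111 genes measured on those 4 arrays. The log2 difference of 10 minus 5 weeks was -3.45 in null and 3.38 in wild-type arrays for Alb, -2.68 in null and 3.33 in wild-type arrays for Ahsg, -2.19 in null and 1.99 in wild-type arrays for Apoc1, and -2.55 in null and 2.89 in wild-type arrays for Apoc3. It was -2.97 in null and 3.80 in wild-type arrays for Serpina1a, -2.76 in null and 3.90 in wild-type arrays for Serpina1c, -2.78 in null and 4.26 in wild-type arrays for Serpina1e, and -1.09 in null and 2.10 in wild-type arrays for Serpinc1. For Bhmt it was -2.75 in null and 3.84 in wild-type arrays, and for Slc27a2 -1.69 in null and 2.54 in wild-type arrays. Between 5 and 50 weeks 3 genes did so, as for 0.385% of all genes. Ambp had -1.15 in null and 2.36 in wild-type arrays, Serpina1c -2.57 in null and 1.0 in wild-type arrays, and Serpina1e -2.56 in null and 1.34 in wild-type arrays. In both counts the Serpina1 copies share probe bases and cannot be counted as separate evidence. Between 5 and 50 weeks Serpina1a missed the limit at 0.90 in wild-type arrays, where Serpina1c just passed it at 1.0. These differences between the genotypes were not tested. Of 22 genes above background on all 6 arrays, 19 had opposite signs between 5 and 10 weeks, 14 between 5 and 50 weeks and 5 between 10 and 50 weeks. The shares of all genes were 42.4%, 32.2% and 36%. The hepatocyte index itself moved by -0.58 in null and by 1.53 in wild-type arrays between 5 and 10 weeks.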

How the results depend on the processing

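No member was called for genotype or age in any setting run, the smallest genotype adjusted p being 0.0566 with normexp. Over all genes, normexp called 107 higher and 91 lower for genotype, the variance trend 28 and 13, the fit without a replicate block (no age term) 4 and 2, and quantile normalization 0 and 1. Both arrays of a number share an age, so the numbers pair them, and dropping the replicate block left the median at -2.60 and 0 members called. The member median for genotype ranged from -3.97 to -1.36 with 1 pair left out, was -1.40 with normexp, -1.60 with genes above background on all 6 arrays and -0.44 with the index. For age it was -0.90 without the 10-week pair, which changes the error only.

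Signs turned, with the cause not tested, for Igfbp1 (-5.92 to 0.11 with 1 pair left out, the highest without 10 weeks; 2.75 with the index), Apoe (-0.63 to 0.20, and 0.86), Ttr (-0.84 to 0.19, and 0.49), F2 (-0.84 to 0.12, and 0.87), and with the index alone for C3 (0.081), Ahsg (1.08) and Serpinc1 (0.37). These are the 7 of the 30 whose sign turned with the index. The index of the 5-week null array was 0.11 with normexp, and that of the 5-week wild-type array -0.024 with quantile normalization and -0.042 with median scaling. The index of the 10-week wild-type array was 0.67 with normexp and 2.01 without a floor, and that of the 50-week null array -0.54 and -1.21. Genes that followed the index numbered 4 with normexp, 18 against the other members and 26 with a fitted slope (chosen after the data were seen), and 5 to 9 with 1 pair left out. Genes that departed numbered 10 against the other members, 6 with median scaling, 5 without a floor, with the authors' table and without the pair of 5 or of 50 weeks, and 2 with normexp. Without the 10-week pair they were 2, of which Serpinf2 was among the 4. The null minus wild-type difference of the medians of all probes was -0.16 under the 75th percentile scaling and 0 with quantile or median scaling. Dim signals limit the folds of 11 members at 10 weeks to bounds.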

Other observations

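Among genes that the liver adds to plasma in inflammation, Saa1, Saa3 and Lcn2 were not highest on the 10-week wild-type array, while Hp, Orm1, Orm2 and Fgl1 were. Of 8 acute-phase genes 7 were above background on at least 1 array, and Saa2 on none. Saa3, made in inflamed epithelium, macrophages and fat, had signals of 103, 633 and 324 on the 5-, 10- and 50-week null arrays, against 72.8, 11.3 and 5.05 on the wild-type arrays. Its null array was higher at each age. Saa1, a liver acute-phase gene, had 60.2, 236 and 131 on the null arrays and 56.7, 27.9 and 32.1 on the wild-type arrays, lowest on the 10-week wild-type array. Hp, which encodes the haemoglobin-binding haptoglobin, had 103, 236 and 133 on the null arrays and 60.3, 471 and 84.6 on the wild-type arrays. Orm1 and Orm2, for liver acid glycoproteins, were above background on the 10-week wild-type array alone, at 8.34 and 7.12.

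The 8 other complement genes on the array were above background on all 6 arrays. C4b, which acts upstream of C3, had 280.0, 724 and 1119 on the null arrays, against 143, 141 and 172 on the wild-type arrays, and the groups did not overlap, as for 12.6% of all genes with null higher. Cfb, of the alternative pathway, had 92.1, 132 and 183 on the null arrays and 55.4, 58.1 and 77.5 on the wild-type arrays, also without overlap. Serping1 overlapped, with 96.5, 148 and 96.8 on the null arrays and 85.8, 137 and 61.9 on the wild-type arrays. C2 alone of the 8 had a negative log2 difference, -0.83 ± 0.41. It had 20.8, 14.3 and 15.2 on the null arrays and 78.0, 21.8 and 14.9 on the wild-type arrays. None of the 8 passed the limma test of genotype, and 4 of them had an unadjusted limma p under 0.05 with null higher, as did 11.2% of all genes. Of 5 adipocyte genes 3 were above background on at least 1 array. The lipid droplet gene Cidec was above background on all 6, with 373, 280 and 374 on the null arrays and 349, 360 and 441 on the wild-type arrays, and Plin1 and Lep were not above background on any array.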
